A study of Homo sapiens with 4 samples.

Results

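The MYC, MAX, MXD and MLX network was followed in HaCaT keratinocytes that overexpress TCN1. Its 10 genes (MYC, MAX, MXD1, MXI1, MXD3, MXD4, MNT, MGA, MLX and MLXIP) were chosen by name from the 29209 genes listed in each library, and all 10 were found and tested. HaCaT is an immortalised human keratinocyte line. A lentivirus was used to make a line that overexpresses TCN1, the gene of haptocorrin, a vitamin B12 carrier (TCN1_OE, 2 libraries), and it was compared with negative control cells of the same line (NC, 2 libraries). The labels name neither the promoter of the vector nor the virus given to the control, and do not say whether the cells were a clone or a pool, or whether each library had its own culture. P-values therefore rest on the spread among these 4 libraries alone, and that spread may be technical.

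Proteins of this network carry a basic helix-loop-helix leucine zipper and bind DNA in pairs, mostly at the E-box CACGTG. MYC paired with MAX activates genes of growth, ribosome assembly and metabolism. The MXD proteins (MXI1 belongs to them), MNT and MGA compete with MYC for MAX and recruit repressor complexes, SIN3 for MXD and MNT and a polycomb complex for MGA. MLX pairs with MLXIP, also called MondoA, which senses glucose phosphates and activates TXNIP and ARRDC4, and MLX pairs with some of the MXD proteins and MNT as well. In epidermis, MYC is known for proliferating basal cells and MXD1 for differentiating cells.

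Library totals were between 11593377 and 19973550 counts, and the 10 network genes had between 235 and 1928 counts in each library. TCN1 stood at 1.67 and 0.978 FPKM (fragments scaled by gene length and library depth) in NC and at 68.3 and 56.6 FPKM in TCN1_OE, a log2 fold change of 5.48 ± 0.20 (SE) (edgeR adjusted p = 2.4e-06). The summed level of 10 keratinocyte markers lay between 7377 and 8838 FPKM per library, and those of fibroblast, melanocyte, endothelial and immune markers lay between 0.152 and 2.15 FPKM. Mitochondrially encoded genes took 5.33% and 5.13% of the counts in NC and 6.04% and 5.65% in TCN1_OE. That share moved with the groups in every result below, and its part in them was not tested.

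MYC transcripts were lower in both TCN1_OE libraries, and so were those of the antagonist MGA. The other 5 antagonists, MXD1, MXI1, MXD3, MXD4 and MNT, had higher means, but no network gene passed the test. Of the 10 genes, 0 were called at an edgeR adjusted p under 0.05, beside 0.496% of the 15113 genes tested (75 genes). By unadjusted p under 0.05 in edgeR, 4 of the 10 were past the threshold, MXD1, MXD4 and MXI1 above 0 and MYC below, beside 12.8% of all genes tested (6% higher and 6.81% lower). FPKM values of the groups did not overlap for 7 of the 10 genes, 5 higher and 2 lower in TCN1_OE, beside 42.7% of all genes tested (21.7% higher and 21% lower). Values were positive for 6 and negative for 4, beside 50.3% and 49.7%. Fitted values ran from -0.22 for MYC to 0.49 for MXD4 on the log2 scale, with a median of 0.22 over the 10 genes and of 0.0016 over all genes tested.

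The count of network genes called moved with the processing, most of all with the replicate number as a block, whose counts are given with the other settings after the results. It was 0 with DESeq2 (1.75% of all genes called), with RLE factors (0.483%), with library totals only (0.873%), at a mean FPKM of 1 or more (0.392%) and with limma at a pseudocount of 0.5 or 0.1 (0.00872% each). Leaving out NC replicate 1 or TCN1_OE replicate 2 gave 0 as well, beside 1.6% and 1.36%. Of the edgeR fits with no replicate block, MXD4 alone was called higher without NC replicate 2 (1.43% of all genes), without TCN1_OE replicate 1 (1.92%) and without a filter on low counts (1.63%).

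MYC (ENSG00000136997, GRCh38 chromosome 8, 127735434 to 127741434, plus strand) had the highest mean level of the 10 per unit of length. It stood at 15.8 and 16.1 FPKM in NC and at 14.2 and 13.3 FPKM in TCN1_OE, so both TCN1_OE libraries lay below both NC libraries. The log2 fold change was -0.22 ± 0.10 (SE), or 0.861-fold (edgeR adjusted p = 0.380). None of its annotated exonic bases lies under another gene. MAX, the shared partner (ENSG00000125952, chromosome 14, 65006174 to 65102695, minus strand), stood at 7.07 and 6.13 FPKM in NC and at 6.22 and 6.57 FPKM in TCN1_OE. Its groups overlapped, and its log2 fold change of -0.05 ± 0.12 had an edgeR adjusted p of 0.901.

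**Figure D1:**
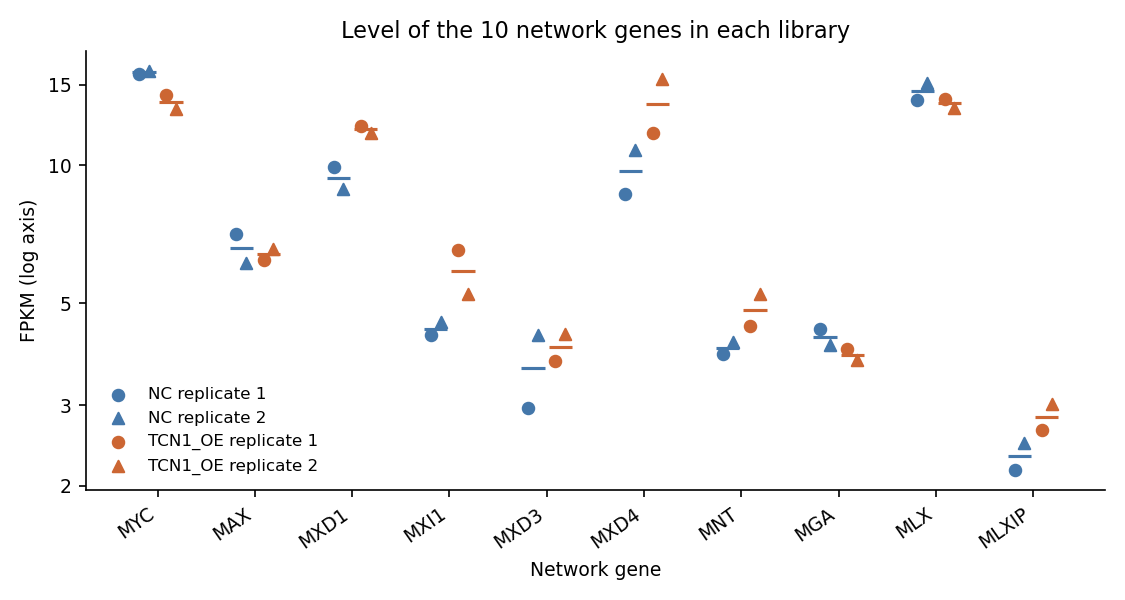
FPKM (log axis) of the 10 network genes in each of the 4 libraries, with circles for replicate 1, triangles for replicate 2 and short lines for the group means. MYC and MGA lie lower and MXD1, MXI1, MXD4, MNT and MLXIP lie higher in both TCN1_OE libraries than in both NC libraries. MAX, MXD3 and MLX overlap.

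The 4 MXD genes had positive fitted values from 0.16 to 0.49 on the log2 scale, and differences among them were not tested. MXD1 (ENSG00000059728, chromosome 2, 69897688 to 69942945, plus strand), which recruits the SIN3 repressor complex, stood at 9.92 and 8.87 FPKM in NC and at 12.2 and 11.8 FPKM in TCN1_OE. The groups did not overlap, and the log2 fold change was 0.34 ± 0.11 (edgeR adjusted p = 0.207). MXI1 (ENSG00000119950, chromosome 10, 110207605 to 110287365, plus strand), a further MXD repressor, stood at 4.25 and 4.54 FPKM in NC and at 6.54 and 5.23 FPKM in TCN1_OE. Its TCN1_OE libraries lay further apart than its NC libraries, and the log2 fold change was 0.42 ± 0.14 (edgeR adjusted p = 0.242). It was 0.26 without TCN1_OE replicate 1.

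MXD4 (ENSG00000123933, chromosome 4, 2247432 to 2262294, minus strand) had the largest fitted value of the 10. It stood at 8.65 and 10.8 FPKM in NC and at 11.8 and 15.5 FPKM in TCN1_OE, and replicate 2 was the higher library in each group. The log2 fold change was 0.49 ± 0.16, or 1.40-fold (edgeR adjusted p = 0.225). Its size rested on single libraries: it was 0.66 without NC replicate 2 and 0.68 without TCN1_OE replicate 1, with edgeR adjusted p of 0.0066 and 0.0012, and 0.32 and 0.26 without NC replicate 1 and TCN1_OE replicate 2, with 0.455 and 0.641. MXD3 (ENSG00000213347, chromosome 5, 177301461 to 177312757, minus strand), the MXD gene known from cells in S phase, stood at 2.96 and 4.27 FPKM in NC and at 3.74 and 4.29 FPKM in TCN1_OE. Its groups overlapped, with a log2 fold change of 0.16 ± 0.20 (edgeR adjusted p = 0.798), and the value was -0.10 without NC replicate 1. Of the exonic bases of MXD3, 40.4% lie under another annotated gene on either strand. The library kit does not mark strand, and how the authors counted reads there is not known.

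MNT and MGA are the larger, more widely expressed antagonists. MNT (ENSG00000070444, chromosome 17, 2384060 to 2401118, minus strand) stood at 3.88 and 4.11 FPKM in NC and at 4.46 and 5.23 FPKM in TCN1_OE. The groups did not overlap, and the log2 fold change was 0.27 ± 0.13 (edgeR adjusted p = 0.411) and 12.2% of its exonic bases under another gene. Leaving out TCN1_OE replicate 2 took MNT to 0.14. MGA (ENSG00000174197, chromosome 15, 41621224 to 41773081, plus strand), the scaffold of the polycomb complex PRC1.6, had a negative value, unlike the MXD genes and MNT. It stood at 4.38 and 4.06 FPKM in NC and at 3.97 and 3.76 FPKM in TCN1_OE, so its groups did not overlap. The log2 fold change was -0.13 ± 0.10 (edgeR adjusted p = 0.628), and -0.085 without NC replicate 1.

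The MLX branch showed the same lack of calls. MLX (ENSG00000108788, chromosome 17, 42567068 to 42573239, plus strand) stood at 13.9 and 15.1 FPKM in NC and at 13.9 and 13.4 FPKM in TCN1_OE, with overlapping groups, a log2 fold change of -0.09 ± 0.11 (edgeR adjusted p = 0.793). Leaving out NC replicate 1 took MLX to -0.16 and leaving out NC replicate 2 took it to -0.025. Of its exonic bases, 18.1% lie under another gene. MLXIP (ENSG00000175727, chromosome 12, 122078722 to 122147347, plus strand), the glucose-sensing partner of MLX, stood at 2.17 and 2.48 FPKM in NC and at 2.64 and 3.01 FPKM in TCN1_OE. The groups did not overlap, and the log2 fold change was 0.29 ± 0.13 (edgeR adjusted p = 0.405). It was 0.18 without NC replicate 1 and 0.17 without TCN1_OE replicate 2. Per unit of length the mean over the 4 libraries ran from 14.8 FPKM for MYC through MLX (14.1), MXD4 (11.7), MXD1 (10.7), MAX (6.50), MXI1 (5.14), MNT (4.42), MGA (4.05) and MXD3 (3.81) to 2.57 FPKM for MLXIP. In this order each gene's range over the libraries overlapped that of its neighbour, except between MXD1 and MAX.

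**Figure D2:**
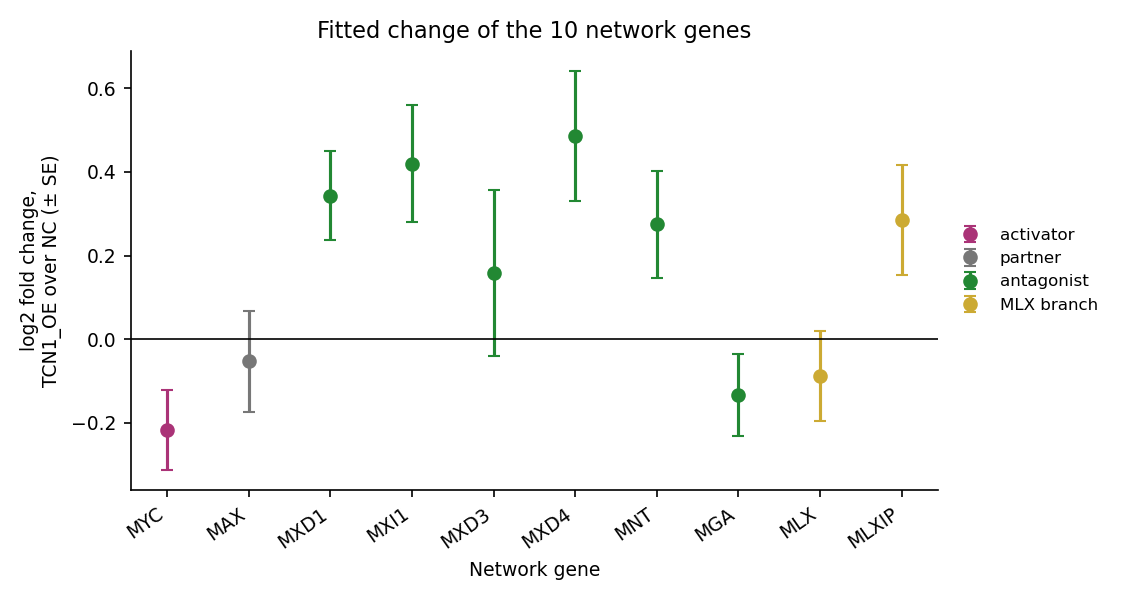
Fitted log2 fold change of TCN1_OE over NC for each network gene, coloured by role, with bars for the standard error. MXD1, MXI1, MXD3, MXD4, MNT and MLXIP have positive values from 0.16 to 0.49, MYC, MAX, MGA and MLX have negative values from -0.22 to -0.05, and 0 of the 10 passed the adjusted threshold.

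The remaining members of the family were scarce. MYCL, a MYC paralog, stood at 0.746 and 1.02 FPKM in NC and at 1.10 and 1.27 FPKM in TCN1_OE, with a log2 fold change of 0.44 ± 0.25 (edgeR adjusted p = 0.513). MLXIPL, the MondoA paralog known as ChREBP, stood between 0.322 and 0.605 FPKM with overlapping groups, at 0.38 ± 0.37 on the log2 scale. MYCN was not analysed here. Of 10 other factors known to bind E-boxes, among them BHLHE40 and BHLHE41, which lack the leucine zipper, 8 were tested and all 8 had positive values (50.3% of all genes tested were positive), with a median of 0.21 and 0 called. BHLHE41 and BHLHE40, circadian repressors, stood at 0.29 ± 0.12 and 0.22 ± 0.10, and SREBF1 and SREBF2, activators of lipid and sterol synthesis, at 0.29 ± 0.14 and 0.21 ± 0.11. With 1 library left out SREBF1 ran from 0.087 to 0.49 and SREBF2 from 0.084 to 0.34, and SREBF1 was past the edgeR threshold without NC replicate 2 and without TCN1_OE replicate 1. MYCL ran from 0.20 without NC replicate 1 to 0.67 without NC replicate 2.

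Relative to MXD1, MXI1, MXD4 and MNT, MYC was lower in both TCN1_OE libraries than in both NC libraries. Those directions follow by arithmetic from the FPKM values above, where MYC was lower and each of these antagonists higher without overlap. They are no further result, and all the ratios share the values of MYC. Relative to MGA, MYC was lower by little, and relative to MXD3 the groups overlapped. A ratio of 2 genes within a library does not depend on the scaling of that library. MYC stood at 1.59 and 1.81 times the FPKM of MXD1 in NC and at 1.17 and 1.13 times in TCN1_OE. Against MXI1 the ratio was 3.71 and 3.54 in NC and 2.17 and 2.54 in TCN1_OE. The ratio to MXD4 was 1.83 and 1.49 in NC and 1.21 and 0.860 in TCN1_OE. In TCN1_OE replicate 2 the FPKM of MXD4 thus exceeded that of MYC. Levels compared between genes rest on the gene lengths implied by the authors' counts and FPKM, 6109 bp for MYC and 6873 bp for MXD4.

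The difference of the mean log2 ratio, TCN1_OE minus NC, was -0.57 for MXD1, -0.63 for MXI1, -0.69 for MXD4 and -0.49 for MNT. For MNT the ratio went from 4.07 and 3.91 in NC to 3.19 and 2.54 in TCN1_OE. MGA and MXD3 stood apart from these. MYC over MGA was 3.60 and 3.96 in NC and 3.57 and 3.54 in TCN1_OE, a difference of -0.09, and MYC over MXD3 was 5.35 and 3.76 in NC and 3.80 and 3.10 in TCN1_OE, a difference of -0.39 with overlapping groups. With 1 library left out the difference ran from -0.15 to -0.019 for MGA, nearest 0 without NC replicate 2, and from -0.64 to -0.13 for MXD3, nearest 0 without NC replicate 1. For MNT it was -0.32 and for MXD4 -0.45 without TCN1_OE replicate 2. The exact two-sided permutation p was 0.333 for 5 of the 6 pairs and 0.667 for MXD3, and 0.333 is the smallest value that 2 libraries against 2 allow, so no pair can pass, before or after adjustment over the 6 pairs.

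The FPKM of the 6 antagonists summed to 34.1 and 36.7 in NC and to 42.7 and 45.7 in TCN1_OE. MYC was 0.464 and 0.439 of that sum in NC and 0.333 and 0.291 in TCN1_OE, a difference of -0.54 in the mean log2 ratio. Leaving out 1 library at a time gave -0.63 to -0.44. The sum was higher and MYC lower without overlap, so the direction of this ratio was fixed as well. Against MAX the ratio of MYC overlapped between groups, at 2.23 and 2.62 in NC and 2.28 and 2.02 in TCN1_OE.

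**Figure D3:**
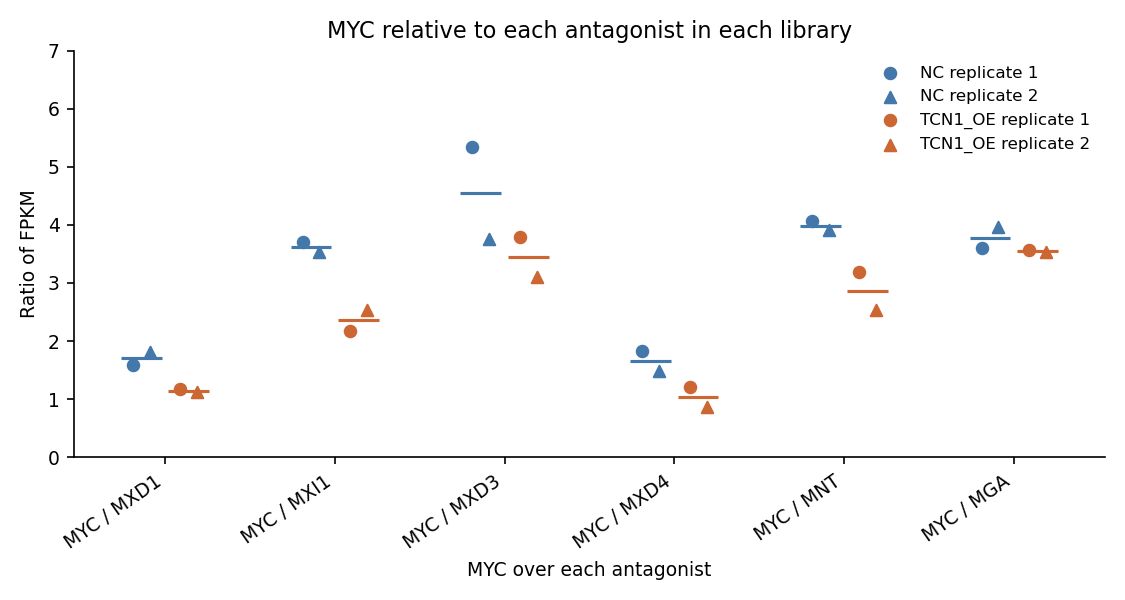
Ratio of the FPKM of MYC to that of each antagonist in each library, with circles for replicate 1, triangles for replicate 2 and short lines for the group means. For MXD1, MXI1, MXD4, MNT and MGA both TCN1_OE libraries lie below both NC libraries, by little for MGA (3.57 and 3.54 against 3.60 and 3.96), and for MXD3 the groups overlap.

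The E-box through which the network acts was searched in the promoters of its own genes, since these factors are known to regulate one another. Promoter sequences (250 bases before to 50 after an annotated start, RefSeq, GRCh38.p14) were matched for 9 of the 10 genes, and 3 of them, MXD4, MNT and MLX, held the motif CACGTG, which reads the same on both strands. The motif was in 12.2% of the 10716 tested genes with a matched promoter. The stretches are shown 5′ to 3′ with the E-box in capitals, for MXD4 at chr4:2262315-2262359 on the minus strand, MNT at chr17:2401221-2401280 on the minus strand and MLX at chr17:42567023-42567082 on the plus strand.
MXD4: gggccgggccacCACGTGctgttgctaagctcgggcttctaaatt
MNT: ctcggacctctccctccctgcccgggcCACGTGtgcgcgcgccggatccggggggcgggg
MLX: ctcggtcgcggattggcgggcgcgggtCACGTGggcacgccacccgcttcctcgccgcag
The motif begins 238, 193 and 50 bases before the start of MXD4, MNT and MLX. These are RefSeq starts, which can differ from the ends of the GENCODE gene models given above, as for MXD4. Of these 3 genes MXD4 and MNT had positive values, 0.49 and 0.27, and MLX a negative one, -0.09.

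Of the genes that MYC is known to activate, 4 fell in TCN1_OE and most others had negative values without passing. Of a list of 57, which holds genes of ribosome assembly, the cell cycle and metabolism, 54 were tested, 50 had a negative value and 4 a positive one (49.7% and 50.3% of all genes tested), with a median of -0.34 beside 0.0016 over all genes tested. The 4 that passed all fell, 7.41% of those tested beside 0.496% of all genes, and by unadjusted p under 0.05 in edgeR 35 of the 54 were lower and 0 higher, beside 6.81% and 6% of all genes tested. FPKM values were lower in both TCN1_OE libraries than in both NC libraries for 43 of the 54, beside 21% of all genes tested. The list was chosen with earlier results of these libraries known, so it is not independent evidence of its direction.

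NOLC1, a nucleolar chaperone of the ribosome-modifying particles, fell from 64.1 and 59.1 FPKM in NC to 41.8 and 40.9 FPKM in TCN1_OE, a log2 fold change of -0.58 ± 0.09 (edgeR adjusted p = 0.0323). TCOF1, the nucleolar protein treacle, fell from 21.4 and 23.6 FPKM to 14.97 and 15.9 FPKM, by 0.55 on the log2 scale (edgeR adjusted p = 0.0475). NOP56, a core protein of the same modifying particles, fell from 45.2 and 40.3 FPKM to 31.2 and 28.1 FPKM, a log2 fold change of -0.53 ± 0.09. WDR43, needed for transcription and processing of ribosomal RNA, fell from 19.3 and 17.6 FPKM to 12.7 and 10.7 FPKM, at -0.66 ± 0.12. The edgeR adjusted p was 0.04996 for both NOP56 and WDR43, at the edge of the threshold. In each of these 4 genes every TCN1_OE library lay below every NC library, which follows in part from their choice as genes that passed.

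A second list of 20 classic direct MYC targets, 3 of them shared with the first (15% of this list and 5.26% of the other), gave 18 negative and 2 positive values with a median of -0.28, beside 49.7% negative among all genes tested. Of these 20 genes 2 fell, beside 0.212% of all genes called lower. This list too was chosen with earlier results of these libraries known, so its direction is not independent evidence. RCC1, the nucleotide exchange factor of RAN, fell from 35.3 and 36.2 FPKM in NC to 22.4 and 25.2 FPKM in TCN1_OE, a log2 fold change of -0.59 ± 0.10. ODC1, the entry enzyme of polyamine synthesis, fell from 16.3 and 16.5 FPKM to 10.8 and 10.4 FPKM, a log2 fold change of -0.64 ± 0.11, and both had an edgeR adjusted p of 0.0475. Close to them without passing were HSPD1, a mitochondrial chaperonin, at -0.46 ± 0.08 and the pyrimidine synthesis enzyme CAD at -0.57 ± 0.11, with edgeR adjusted p of 0.0540 and 0.0678. With edgeR limited to genes of at least 1 FPKM, NOLC1 remained of the 4 called genes of the first list and 0 genes of this list were called, and limma called 0 of either. The lists also hold genes with few reads, named after their values were seen: LDHA had 5 to 19 counts per library, NOP2 had 5 to 16 and FBL 17 to 187, although growing cells are known to use all of them, and FBL stood at 5.27 FPKM in TCN1_OE replicate 1 and at 0.951 in replicate 2. These genes remain in the counts, medians and motif shares given for the lists, and their own values were not read as levels.

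The E-box was more frequent in promoters of these targets than among all tested genes: 25 of the 47 activated targets with a matched promoter held it (53.2%), and 10 of 17 classic targets (58.8%), beside 12.2%. IPO4 and SLC19A1, among the 25, were not tested, while the 12.2% covers tested genes only. Both lists hold known MYC targets, so this difference describes the lists and not these libraries. The median log2 fold change was -0.39 over the 23 tested activated targets with the motif and -0.29 over the 21 without it, so both were negative. Of the activated targets that passed, WDR43 alone is among the 25 with the motif. NOLC1, TCOF1 and NOP56 are not, for want of the motif or of a matched promoter. As examples the stretches of the classic targets that fell are shown, with the E-box in capitals, for ODC1 at chr2:10448013-10448068 on the minus strand, where the motif begins 29 bases before the start, and for RCC1 at chr1:28518009-28518068 on the plus strand, 190 bases before it. Both starts are those of RefSeq. In GENCODE both stretches lie inside the gene, which spans 10439968 to 10448504 for ODC1 and 28505943 to 28539300 for RCC1. The stretch of SRM, the spermidine synthase that follows ODC1 in polyamine synthesis, is at chr1:11060185-11060244 on the minus strand.
ODC1: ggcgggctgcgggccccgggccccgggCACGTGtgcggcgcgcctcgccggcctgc
RCC1: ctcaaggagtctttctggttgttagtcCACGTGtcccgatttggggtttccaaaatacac
SRM: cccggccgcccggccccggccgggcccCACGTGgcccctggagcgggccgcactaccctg
SRM, chosen after its value was seen, stood at 31.9 and 34.0 FPKM in NC and at 17.4 and 21.9 FPKM in TCN1_OE, a log2 fold change of -0.75 ± 0.14 (edgeR adjusted p = 0.0525).

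Genes that MYC is known to repress had mostly positive values. Of 10, 9 were tested, 7 were positive and 2 negative (50.3% and 49.7% of all genes tested), with a median of 0.31. In edgeR 0 passed over all genes, while 4 were higher by unadjusted p under 0.05, beside 6% of all genes tested. CDKN1A, the cyclin-dependent kinase inhibitor p21, stood at 48.6 and 56.8 FPKM in NC and at 64.7 and 73.9 FPKM in TCN1_OE, a log2 fold change of 0.39 ± 0.11 (edgeR adjusted p = 0.179). NDRG1, a stress and differentiation gene named for its repression by N-MYC, stood at 0.37 ± 0.10, CDKN2B, the kinase inhibitor p15, at 0.34 ± 0.11 and NDRG2 at 0.31 ± 0.13. In these 4 genes both TCN1_OE libraries lay above both NC libraries, which follows in part from their choice by smallest p. Over the list this held for 6 of the 9 tested, beside 21.7% of all genes tested. The repressed targets were also listed with earlier results of these libraries known, so their direction is not independent evidence.

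TXNIP, the main target of MondoA with MLX, rose, and other genes of that list did not pass. It encodes an arrestin-like inhibitor of glucose uptake and of thioredoxin. Its level was 43.2 and 40.8 FPKM in NC and 78.2 and 75.0 FPKM in TCN1_OE, a log2 fold change of 0.86 ± 0.08 (edgeR adjusted p = 0.0041). The groups lay far apart relative to the spread within each. With limma on log2(FPKM + 0.5) the value was 0.86 and the adjusted p was 0.0878.

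ARRDC4, the arrestin-like gene that shares this regulation with TXNIP, stood at 6.27 and 6.86 FPKM in NC and at 7.69 and 7.01 FPKM in TCN1_OE, a log2 fold change of 0.16 ± 0.13 (edgeR adjusted p = 0.657). HK2, the hexokinase whose product MondoA senses, stood at 9.50 in both NC libraries and at 7.08 and 7.79 FPKM in TCN1_OE, at -0.36 ± 0.11 (edgeR adjusted p = 0.220). Of the 6 tested genes of the list 2 were positive and 4 negative (50.3% and 49.7% of all genes tested), with a median of -0.05. TXNIP was the 1 called, beside 0.496% of all genes tested, and the list was chosen with earlier results of these libraries known. Among its negative genes, HK2 is also on the list of activated MYC targets. LDHA, also negative and with few reads, is on the classic list too. The promoter stretch of TXNIP that is known as its carbohydrate response element was found as 2 copies of CACGNG with 5 bases between them, on either strand, which 0.14% of the tested genes with a matched promoter hold and none of the 9 matched network genes does. It is shown 5′ to 3′ with the motif in capitals, for TXNIP at chr1:145996629-145996689 on the minus strand, 88 bases before the start, and beside it the single E-box CACGTG of ARRDC4 at chr15:97960466-97960525 on the plus strand, 210 bases before the start.
TXNIP: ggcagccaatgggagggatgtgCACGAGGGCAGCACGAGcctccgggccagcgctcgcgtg
ARRDC4: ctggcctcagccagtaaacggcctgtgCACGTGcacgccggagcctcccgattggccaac

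**Figure D4:**
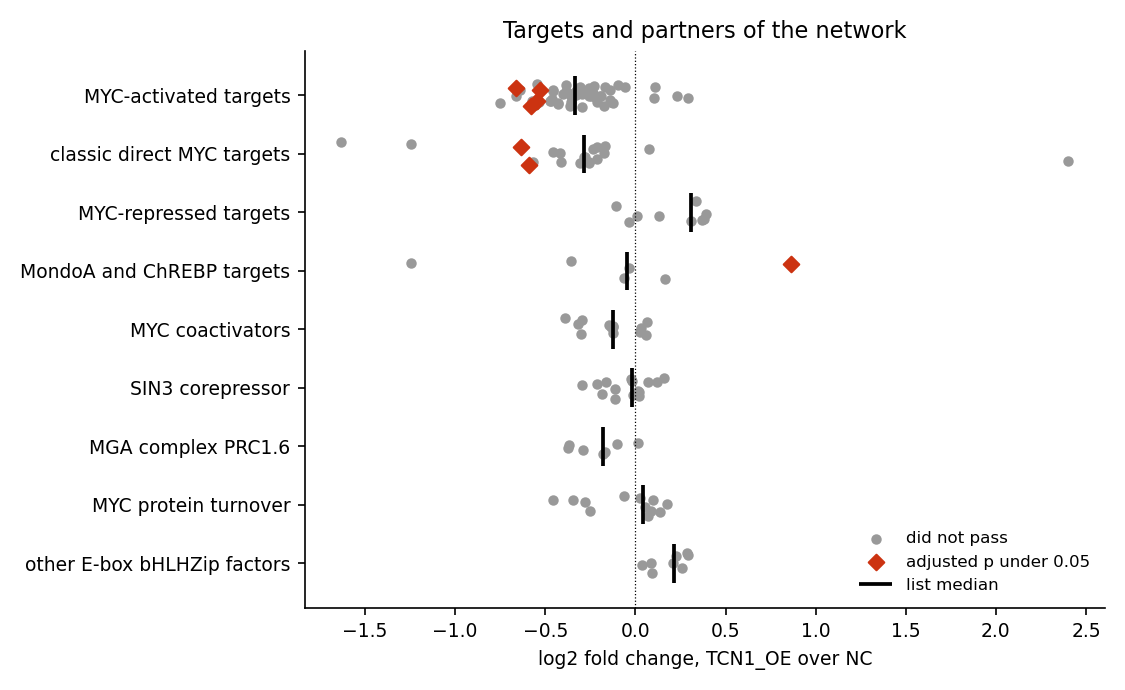
Log2 fold change of TCN1_OE over NC for each tested gene of the lists of targets and partners, with red diamonds for genes at an adjusted p under 0.05, grey points for the others and black lines for the list medians. Medians are -0.34 and -0.28 for the activated and classic MYC targets and 0.31 for the repressed ones, and the diamond on the right is TXNIP at 0.86. The point at 2.40 is FBL, whose libraries disagree.

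Partners and regulators of the network gave 0 calls in edgeR over all genes. Among 13 coactivators of MYC, 9 were negative and 4 positive with a median of -0.12, and 4 were lower by unadjusted p under 0.05 in edgeR, beside 49.7% negative and 6.81% lower among all genes tested. The helicases RUVBL1 and RUVBL2 of the TIP60 complex stood at -0.39 ± 0.09 and -0.32 ± 0.13, WDR5, which holds MYC on chromatin, at -0.30 ± 0.10 and the acetyltransferase KAT2A at -0.30 ± 0.13. RUVBL2 was -0.15 without TCN1_OE replicate 1 and was called without TCN1_OE replicate 2, at -0.51. RUVBL1 had 16.3 and 17.0 FPKM in NC and 12.8 and 12.7 FPKM in TCN1_OE (edgeR adjusted p = 0.116).

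Genes of the repressor complexes gave 0 calls as well. Of 15 genes of the SIN3 complex, through which MXD and MNT repress, 6 were positive and 9 negative, with a median of -0.02 and 1 past an unadjusted p under 0.05 in edgeR (12.8% of all genes tested), the deacetylase HDAC2 at -0.21 ± 0.09. RBBP7, BRMS1 and ING2, further subunits, stood at -0.16 ± 0.09, -0.19 ± 0.11 and -0.30 ± 0.20. Of 7 tested genes of the MGA complex 6 were negative (49.7% of all genes tested), with a median of -0.18. By unadjusted p under 0.05 in edgeR 3 were lower and 0 higher, beside 6.81% and 6% of all genes tested. TFDP1, the E2F partner, stood at -0.29 ± 0.09, L3MBTL2 at -0.37 ± 0.14, PCGF6 at -0.37 ± 0.16 and CBX3 at -0.17 ± 0.12. RING1 and RYBP of that complex had too few counts to test, and CBX3 is also on the list of activated MYC targets.

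Regulators of MYC protein stability went both ways, 7 positive and 5 negative of 12, with a median of 0.04. The 4 past an unadjusted p under 0.05 in edgeR, beside 12.8% of all genes tested (6.81% lower), were all lower: the deubiquitinase USP36 at -0.46 ± 0.12, the kinase AURKA at -0.25 ± 0.09, the ubiquitin ligase subunit SKP2 at -0.28 ± 0.10 and CIP2A, an inhibitor of the phosphatase PP2A, at -0.35 ± 0.13. USP36 stood at 5.26 and 5.97 FPKM in NC and at 4.26 and 3.93 FPKM in TCN1_OE (edgeR adjusted p = 0.147). CIP2A ran from -0.55 without TCN1_OE replicate 1, where it was called in edgeR, to -0.18 without TCN1_OE replicate 2. Transcripts do not measure MYC protein, which these genes act on.

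Among the 5 genes whose 4 library values lay nearest to those of MYC were ZPR1, PABPC4, PDCD2 and NUP88, out of 6687 tested genes whose mean reached 5 FPKM. The measure was the Euclidean distance between deviations of log2 CPM from the gene's mean over the 4 libraries, which was 0.0204 to 0.0288 for these 4 genes and 0.284 at the median of all candidates. PABPC4, a cytoplasmic poly(A)-binding protein, stood at 14.6 and 14.96 FPKM in NC and at 13.0 and 12.5 FPKM in TCN1_OE. With 4 points such closeness is a description of these libraries.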

How the data were processed

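PolyA RNA of 2 NC and 2 TCN1_OE libraries was sequenced; groups and replicate numbers come from the sample titles. The submitters' processing notes name HISAT2, HTSeq 0.13.5 and GRCh38; for the annotation release and strand settings nothing was found, so they are not known here. Raw counts and FPKM were deposited by the authors for each gene, per the file headers, and count over FPKM gave a whole gene length in 100% of values (tolerance 1e-04 bp). The kit does not mark strand, and the number of reads sequenced is unknown; precision below is counting and library spread only. Counts were tested by quasi-likelihood in edgeR 4.0.16 (R 4.3.3; TMM, robust, filterByExpr with a minimum count of 10, all 4 libraries, group only), with Benjamini-Hochberg adjustment over 15113 genes and a threshold of 0.05. The standard error is the log2 fold change over the square root of F. Alternatives used DESeq2 1.42.0, limma 3.58.1, other scalings and filters, a replicate block and each library left out. The fits were tested on simulated data with known changes. There edgeR with group only recovered 21 of 67 genes changed 1.5-fold, 42 of 67 changed 2-fold and 58 of 66 changed 4-fold. It also called 15 genes that had not been changed. Network genes had fitted changes of at most 1.40-fold, so the lack of calls among them does not show a lack of change. Locations and exon overlaps come from GENCODE 29 (GRCh38), whose gene models may differ from those of the authors. Members and lists were chosen with earlier results of these data known. Named were TCN1, all network genes, TXNIP, ARRDC4, up to 4 genes of smallest p per list and the 5 genes nearest to MYC, 1 of which is not reported here; others are marked.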

Additional observations from a re-analysis of the deposited data

How the results depend on the processing

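Called genes numbered 43 higher and 32 lower in edgeR. They were 95 and 109 with DESeq2, 69 and 63 with library totals only, 200 and 275 without a filter on low counts, 1 and 0 with limma at either pseudocount, 14 lower at a mean of at least 1 FPKM, and 104 to 188 higher and 106 to 142 lower with 1 library left out. Network genes called higher, 0 in the reported fit, were 1 (MXD4) without a filter and 0 to 1 with 1 library left out. Activated MYC targets that fell, 4 in the reported fit, were 14 with DESeq2, 2 with RLE factors, 8 with library totals, 18 without a filter, 1 at a mean of at least 1 FPKM, 0 with limma and 9 to 11 with 1 library left out. Classic targets that fell, 2 in the reported fit, were 5, 4, 7, 0 and 0 with DESeq2, library totals, no filter, the FPKM minimum and limma, and 3 to 5 with 1 library left out; 1 rose with DESeq2 and 0 to 1 with 1 library left out. Repressed targets that rose were 2 without a filter and 0 to 2 with 1 library left out. Of the MondoA list limma called 0 higher. Coactivators and turnover genes each gave 1 lower call without a filter and 0 to 1 with 1 library left out, and other E-box factors 0 to 1 higher.

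With the replicate number as a block, which leaves 1 residual degree of freedom and which no label says marks a shared culture or day, calls rose to 1216 higher and 1655 lower (19% of all genes tested). Network genes then gave 5 higher (MXD1, MXD4, MXI1, MNT, MLXIP) and 1 lower (MYC, edgeR adjusted p 0.0035). Lower calls were 38 for activated and 15 for classic targets, 7 for coactivators, 3 each for the SIN3 and MGA complexes, 4 for turnover genes, and 1 each for the repressed and MondoA lists; 5 repressed targets and 5 other E-box factors were higher. Deviations of same-numbered libraries from their group means correlated at r = 0.15 across 15113 genes. MAX and MXD3 changed sign without NC replicate 1, to 0.049 and -0.10, and with 1 library left out ran from -0.14 to 0.049 and from -0.10 to 0.44; the cause was not tested. MYC stayed between -0.26 and -0.19 in the 12 alternatives. The difference of MYC to each antagonist kept its sign in the 6 alternatives run, though not its size. For every antagonist but MXD3 the groups do not overlap, so leaving out 1 library could not change that sign. The replicate block gives the same difference by its arithmetic. With 1 library left out ARRDC4, BRMS1, CBX3, ING2, KAT2A, MLXIPL and the ratio of MYC to MAX also moved by over 1.5 times without changing sign.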
